A study of Rattus norvegicus with 5 samples.

Results

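Sorted GFP+ cells were compared with non-transfected (NT) cells of the same kind of culture, on the 8740 probe sets of an Affymetrix rat expression array that are not controls. The comparison used 3 of the 5 arrays of the series, 2 of GFP+ and 1 of NT cells, and the probe sets with 1 annotated gene stood for 4736 genes. Both populations came from primary cultures of the hypothalamus of Wistar rat embryos at day 17 (E17). The GFP+ cultures had been transfected with polyethylenimine 24 h after seeding, with a plasmid in which a minimal *Trh* promoter drives GFP. They were trypsinized 48 h later and sorted for GFP fluorescence, and the RNA of 6 experiments was pooled. NT cells carried no plasmid, and the RNA of 3 experiments was pooled. GFP+/- cells, shown beside them on 2 arrays, were transfected cells that passed through the sorter without selection, again with 3 experiments pooled. No sort is stated for the NT cells, so that transfection, passage through the sorter, selection for GFP and the RNA pool cannot be told apart between GFP+ and NT cells. The labels call the 2 GFP+ arrays biological replicates, whereas the methods describe aliquots of one pooled RNA. A p-value here therefore measures the spread between arrays, and NT, with 1 array, has no spread of its own.

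Neurons of the fetal hypothalamus grow in such cultures together with astrocytes, their precursors, microglia and fibroblasts of the meninges. Neurons that make thyrotropin releasing hormone (TRH) are few among them, and a reporter under the *Trh* promoter is a means to collect them. Rab and Arf GTPases direct vesicles between the endoplasmic reticulum, the Golgi apparatus, endosomes and the plasma membrane. Ubiquitin-conjugating enzymes mark proteins for the proteasome, and interferons, released when cells sense foreign nucleic acid, switch on genes of antiviral defence and antigen presentation.

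The deposited MAS 5.0 signal is one linear intensity per probe set and array. The arrays had been scaled by one factor each, and after 2% was trimmed from either end every mean was 501. The control probe sets differed between the populations. The *Gapdh* probe set near the 3' end had 11353 and 9337 in GFP+ and 11163 in NT cells, whereas the one in the middle was 2.38-fold and the one near the 5' end 3.12-fold lower in GFP+ cells. Its ratio of 3' to 5' signal was 5.45 in NT, 14.6 and 17.6 in GFP+ and 12.7 and 14.2 in GFP+/- cells. The probe sets of this array are built from pairs of probes whose distance from the 3' end is not used here. The part of this difference in the results below was not tested. Arrays have no read depth, and their number limits the precision.

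The label of the sorted cells was compared with marker transcripts. *Trh*, which encodes the hormone precursor, was dim, with 96.6 in NT, 115 and 141 in GFP+ and 109 and 106 in GFP+/- cells. The difference between GFP+ and NT cells was 0.40 on the log2 scale (SE 0.36) and did not pass the test (limma, adjusted p = 0.595). A second, dim *Trh* probe set went the other way, with 122 in NT, 89.5 and 40.2 in GFP+ and 86.8 and 51.0 in GFP+/- cells (log2 difference -1.02, limma, adjusted p = 0.425). *Mapt*, which encodes the neuronal protein tau, was bright on every array, with 12752 and 10426 in GFP+ and 10041 in NT cells. Its log2 difference was 0.20 (limma, adjusted p = 0.734), and -0.036 under quantile normalization. The 2 other bright probe sets of *Mapt* differed from it and from each other. One had 1697 and 1199 in GFP+ and 390 in NT cells and rose by 1.87 (limma, adjusted p = 0.0220), and the other had 5326 and 3716 against 7836 (log2 difference -0.82, limma, adjusted p = 0.137). Summed over 24 genes of the neuronal cytoskeleton, the signal was 98586 and 89229 in GFP+ and 99606 in NT cells. Summed over 19 astrocyte markers it was 56872 and 55871 in GFP+ and 49816 in NT cells. Neuronal transcripts were thus bright in both populations, and no *Trh* probe set passed the test in either direction.

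By the 2-fold measure of the study, with both GFP+ arrays on one side of NT, 1078 of 8740 probe sets (12.3%) were lower and 1190 (13.6%) higher in GFP+ cells. Among the brightest 41% by mean signal over the 5 arrays, which had a mean of at least 175, 412 of 3583 (11.5%) were lower and 471 (13.1%) higher. At the level of genes, each read from its brightest probe set, 525 of 4736 (11.1%) were lower and 615 (13.0%) higher. The 2 GFP+ arrays were more than 2-fold apart for 3.27% of the bright probe sets and for 15.5% of all probe sets, so that dim transcripts are the less certain ones. With limma, 355 probe sets (4.06%) fell and 383 (4.38%) rose at an adjusted p under 0.05, which is 194 genes lower (4.10%) and 204 higher (4.31%). These calls rest on an estimate of the spread from 2 residual degrees of freedom. Without an intensity trend in the prior variance 1 lower and 1 higher probe set passed, and with any one GFP+ or GFP+/- array left out 0 lower and 1 higher, where the unadjusted p was under 0.05 for 904 to 1072 lower probe sets. The words fell and rose below stand for limma on all 5 arrays. Of the 83 genes named with values, 76 passed there, and *Lcn2* alone passed without the trend or with an array left out. The 2-fold counts without one GFP+ array were 1143 and 1443 lower. The scatter of signals shows both sets of probe sets across the whole range of brightness.

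**Figure D1:**
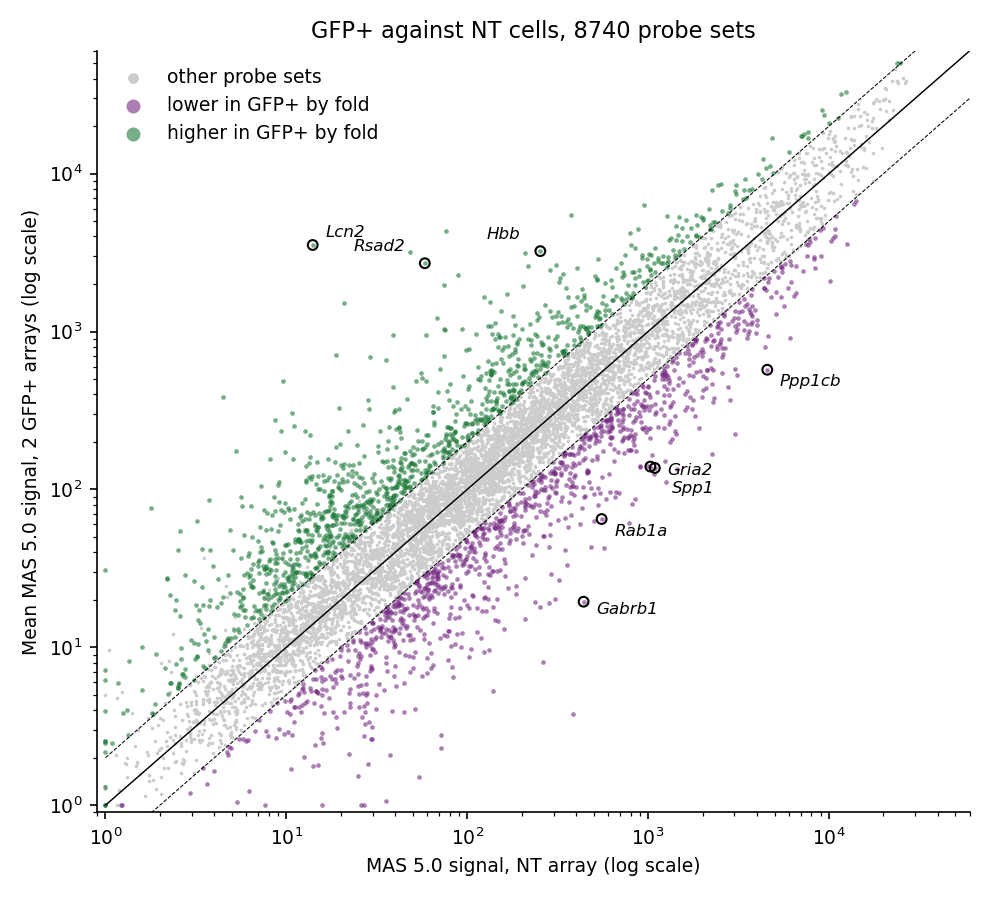
MAS 5.0 signal of each of 8740 probe sets on the NT array (x axis, log scale) and its mean over the 2 GFP+ arrays (y axis, log scale), with signals under 1 drawn at 1. The solid line marks equal signals and the dashed lines 2-fold, purple points are the 1078 lower and green points the 1190 higher probe sets, and circled genes are named in the text.

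Among bright genes whose distance from NT to the nearest GFP+ array was wider than the gap between the GFP+ arrays, the 20 with the largest decrease had log2 differences from -2.46 to -3.17. They had a mixed set of functions. *Hnrnpd*, an RNA-binding protein that regulates mRNA decay, had 90.2 and 212 in GFP+ and 1244 in NT cells and fell by 3.17 (SE 0.63, limma, adjusted p = 0.0408). *Ppp1cb*, a catalytic subunit of protein phosphatase 1, had 519 and 626 in GFP+ and 4558 in NT cells and fell by 3.00 (SE 0.22, limma, adjusted p = 0.00808). Its second bright probe set had 610.5 and 949 against 2405, with a log2 difference of -1.66 (limma, adjusted p = 0.0341). The 2 probe sets of *Ppp1cb* thus went the same way with different sizes. *Cdo1*, the enzyme that oxidizes cysteine, had 2291 in NT, 318 and 398 in GFP+ and 457 and 486 in GFP+/- cells. *Smc3*, a subunit of cohesin, had 896 in NT, 164 and 115 in GFP+ and 135 and 122 in GFP+/- cells. Both fell past the test (limma, adjusted p = 0.00808 and 0.0152). The plot of these genes by array shows the GFP+ arrays below NT for all 20. For 2 of them, *Igf1* (adjusted p = 0.0501) and *Pax6* (adjusted p = 0.0588), the difference did not pass limma's threshold.

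**Figure D2:**
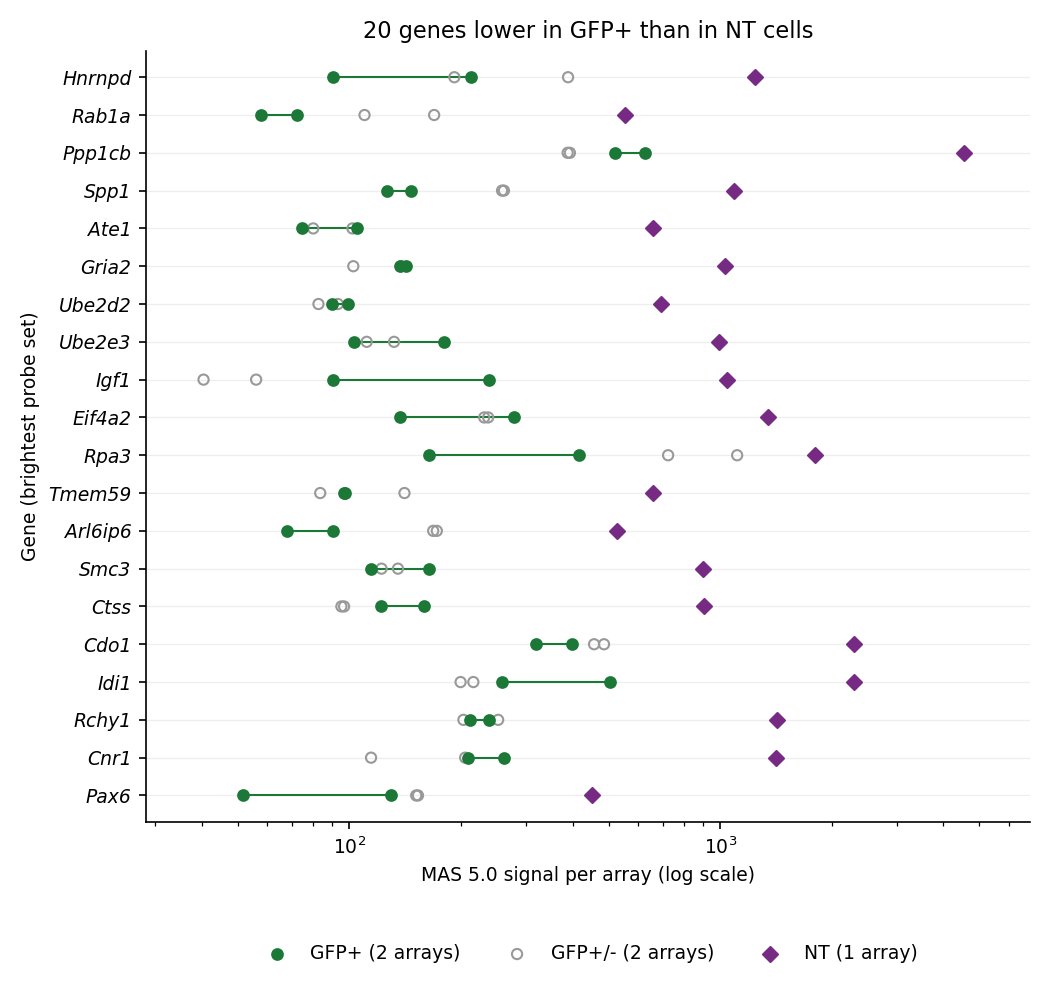
MAS 5.0 signals (x axis, log scale) of the 20 bright genes with the largest decrease in GFP+ against NT cells, 1 row per gene. Each point is one array, with a line joining the 2 GFP+ arrays, and in every row both GFP+ arrays lie to the left of NT.

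Of the gene lists, that of Rab and Arf GTPases, their partners and coat proteins had the most members lower beside few higher. Of its 61 genes 14 (23.0%) were lower and 3 (4.92%) higher by fold, where 11.1% and 13.0% of all genes were, and 8 fell and 1 rose with limma. The median over the list was -0.20, against 0.056 over all probe sets. Over its 43 bright members it was 0.025, against 0.10 over all bright probe sets. *Rab1a*, which directs transport from the endoplasmic reticulum to the Golgi apparatus, had 553 in NT, 57.7 and 72.1 in GFP+ and 110 and 169 in GFP+/- cells. It fell by 3.10 on the log2 scale (SE 0.41, limma, adjusted p = 0.0162). *Arl6ip6*, a membrane protein named for its binding to an Arf-like GTPase, had 68.0 and 90.2 in GFP+ and 528 in NT cells (log2 difference -2.75, limma, adjusted p = 0.0150). The GFP+/- arrays, at 168 and 172 for *Arl6ip6*, lay between the GFP+ arrays and NT. *Arf1*, which recruits coats to Golgi membranes, had 2117 in NT, 624 and 523 in GFP+ and 644 and 798 in GFP+/- cells. *Rab28* had 282 and 366 in GFP+ and 1180 in NT cells. These 2 fell by 1.89 and 1.88 (limma, adjusted p = 0.0157 and 0.0168). A second probe set of *Rab28* had 262 and 135 in GFP+ and 259 in NT cells and did not pass (limma, adjusted p = 0.608).

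The late endosomal *Rab7a* and the recycling *Rab4a* were dim, and their sizes are uncertain. *Rab7a* had 133 in NT, 8.32 and 10.9 in GFP+ and 9.77 and 13.4 in GFP+/- cells. *Rab4a* had 51.8 in NT, 4.11 and 3.97 in GFP+ and 2.03 and 4.56 in GFP+/- cells. For both, all 4 arrays of transfected cells lay below NT, and the log2 differences of GFP+ from NT cells were -3.80 and -3.68 (limma, adjusted p = 0.0242 and 0.0341). Of 2 related genes outside the list, *Gdi2*, which takes Rab proteins off membranes, had 16.2 and 37.2 in GFP+ and 322 in NT cells (log2 difference -3.72, limma, adjusted p = 0.0390). The other, *Madd*, an exchange factor for Rab3, had 11.03 and 18.3 in GFP+ and 147 in NT cells (log2 difference -3.37, limma, adjusted p = 0.0341). One member of the list rose: *Rab14*, of the trans-Golgi network and early endosomes, had 147 in NT, 1067 and 538 in GFP+ and 1682 and 1629 in GFP+/- cells (limma, log2 difference 2.37, adjusted p = 0.0287). The list therefore held members in both directions.

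Among 87 transmitter receptors, 14 (16.1%) were lower and 9 (10.3%) higher by fold, where 11.1% and 13.0% of all genes were, and the median was 0.0041. With limma 6 fell and 1 rose, where 4.10% and 4.31% of all genes did. Among those that fell were subunits of receptors for glutamate, GABA and glycine, whereas other subunits of such receptors, *Gria3*, *Gabra4* and *Gabrd*, were higher by fold. *Gria2*, the AMPA receptor subunit that limits calcium entry, had 1029 in NT, 137 and 142 in GFP+ and 138 and 102 in GFP+/- cells. It fell by 2.88 (SE 0.32, limma, adjusted p = 0.0132), and a second, dim probe set had 86.4 and 83.1 in GFP+ and 77.3 in NT cells (limma, adjusted p = 0.893). *Gabrb1*, a GABA-A receptor subunit, was dim in transfected cells, with 440 in NT, 23.5 and 15.4 in GFP+ and 13.4 and 15.95 in GFP+/- cells. *Gabra5* had 222 and 181 in GFP+ and 826 in NT cells. *Gabrb2* had 2658 in NT, 790 and 777 in GFP+ and 419 and 366 in GFP+/- cells. The 3 GABA-A subunits fell by 4.53, 2.04 and 1.76 (limma, adjusted p = 0.0158, 0.0206 and 0.0147). Dim second probe sets of *Gabra5* and *Gabrb2* had log2 differences of -2.47 and -0.81 and did not pass (limma, adjusted p = 0.0755 and 0.551). *Glra2*, the glycine receptor subunit of immature neurons, had 500 and 544 in GFP+ and 1778 in NT cells (limma, adjusted p = 0.0248). For *Gabrb2* the GFP+/- arrays were the lowest, but the difference of GFP+ from GFP+/- cells did not pass (log2 difference 1.00, limma, adjusted p = 0.145). The one receptor that rose was *Htr5b*, a serotonin receptor, with 288 and 358 in GFP+ and 91.9 in NT cells (limma, adjusted p = 0.0379).

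Other neuronal transcripts went in both directions. *Cnr1*, the cannabinoid receptor of presynaptic terminals, had 1416 in NT, 261 and 209 in GFP+ and 114 and 205 in GFP+/- cells, and fell by 2.60 (SE 0.40, limma, adjusted p = 0.0231). *Scg2*, a granin of dense-core vesicles, had 1601 in NT, 396 and 243 in GFP+ and 184 and 260 in GFP+/- cells, and fell by 2.37 (SE 0.38, limma, adjusted p = 0.0247). Of 29 genes for neuropeptides and their processing, 2 (6.90%) were lower and 1 (3.45%) higher by fold, where 11.1% and 13.0% of all genes were. The median was 0.0042, so that the list as a whole was close to NT. *Slc12a5*, the chloride extruder of mature neurons, had 207 and 391 in GFP+ and 1091 in NT cells (limma, adjusted p = 0.0468). Of 24 genes of the neuronal cytoskeleton, 3 (12.5%) were lower and 3 (12.5%) higher by fold, near the shares of all genes, 11.1% and 13.0%. With limma 2 fell and 2 rose, where 4.10% and 4.31% of all genes did. At an unadjusted limma p under 0.05, 9 were lower and 2 higher, where 997 and 1129 of all 8740 probe sets were. The median was -0.21, and -0.63 over the 19 bright members. *Nefm*, the medium neurofilament subunit, fell, with 1486 in NT, 580 and 436 in GFP+ and 309 and 331 in GFP+/- cells (log2 difference -1.56, limma, adjusted p = 0.0252). *Nefh*, the heavy subunit, rose, with 75.1 in NT, 1224 and 821 in GFP+ and 46.1 and 85.0 in GFP+/- cells (log2 difference 3.74, limma, adjusted p = 0.0152). A second, dim *Nefh* probe set had 17.7 and 15.1 in GFP+ and 39.6 in NT cells (limma, adjusted p = 0.248). *Uchl1*, a deubiquitinase abundant in neurons, was below NT on all 3 of its probe sets, with log2 differences of -1.54, -1.85 and -2.75 (limma, adjusted p = 0.0338, 0.0152 and 0.0149).

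Of single neuronal genes outside the lists, 4 were chosen because their values were low, and they are given as a description, with no test. *Neurod1*, a proneural factor, had 943 in NT, 257 and 223 in GFP+ and 446 and 384 in GFP+/- cells. *Pou3f3*, a transcription factor, had 2552 in NT, 450 and 634 in GFP+ and 756 and 1091 in GFP+/- cells. *Myt1l*, which represses non-neuronal genes, had 2584 in NT, 697 and 736 in GFP+ and 627 and 768 in GFP+/- cells. Their log2 differences were -1.98, -2.26 and -1.85. *Nalcn*, a sodium leak channel, had 316 and 403 in GFP+ and 1376 in NT cells, and 85.5 and 75.6 against 813 on a second probe set, with log2 differences of -1.95 and -3.34.

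Among 42 genes of ubiquitin conjugation and the proteasome, 7 (16.7%) were lower and 6 (14.3%) higher by fold, where 11.1% and 13.0% of all genes were, 5 fell and 3 rose with limma, and the median was -0.11. The ubiquitin-conjugating enzymes *Ube2d2* and *Ube2e3* fell. *Ube2d2* had 691 in NT, 99.0 and 89.8 in GFP+ and 82.5 and 93.2 in GFP+/- cells (limma, adjusted p = 0.0145). *Ube2e3* had 994 in NT, 103 and 180 in GFP+ and 111 and 132 in GFP+/- cells (limma, adjusted p = 0.0199). Both fell by 2.87 on the log2 scale. *Ate1*, which attaches arginine to proteins that are then degraded, and *Rchy1*, a ubiquitin ligase, are not in the list and were among the 20 genes above, with 74.6 and 105 against 658 and with 239 and 212 against 1424. *Psma1*, a subunit of the core proteasome, had 395 and 488 in GFP+ and 2096 in NT cells and fell by 2.26 (limma, adjusted p = 0.0113). In the other direction, *Psmb9*, the interferon-induced subunit of the immunoproteasome, had 73.9 in NT, 901 and 496 in GFP+ and 545 and 570 in GFP+/- cells and rose by 3.18 (limma, adjusted p = 0.0149). These 2 proteasome subunits thus moved in opposite directions.

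Phosphatase and kinase genes were lower and higher by fold at shares near those of all genes, 11.1% and 13.0%. Of 65 phosphatase genes 8 (12.3%) were lower and 10 (15.4%) higher. Of 49 genes of calcium, cyclic AMP and MAP kinase signalling 7 (14.3%) were lower and 8 (16.3%) higher. *Ppp2cb*, a catalytic subunit of protein phosphatase 2A, had 1320 in NT, 295 and 367 in GFP+ and 308 and 337 in GFP+/- cells (log2 difference -2.01, limma, adjusted p = 0.0151). *Ppp2r3a*, a regulatory subunit of the same enzyme, had 513 and 469 in GFP+ and 1300 in NT cells (limma, adjusted p = 0.0284). *Mapk6*, an atypical MAP kinase, had 1771 in NT, 319 and 418 in GFP+ and 347 and 470 in GFP+/- cells (log2 difference -2.28, limma, adjusted p = 0.0158). On a dim *Mapk6* probe set all 4 arrays of transfected cells were between 2.40 and 3.80, against 385 on the NT array. *Prkcb*, a protein kinase C, had 778 and 1011 in GFP+ and 2803 in NT cells (log2 difference -1.66, limma, adjusted p = 0.0211). *Ptpn23*, a phosphatase-like protein of endosomal sorting, rose, with 474 and 505 in GFP+ and 52.3 in NT cells (limma, adjusted p = 0.00808), while its dim probe set had 63.3 and 59.1 against 67.4.

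Genes for translation initiation and RNA binding included 3 more members that fell. *Eif4a2*, an RNA helicase of the cap-binding complex, had 1349 in NT, 137 and 278 in GFP+ and 231 and 237 in GFP+/- cells (log2 difference -2.79, limma, adjusted p = 0.0235). Its probe set is one of those that share sequence with a gene family. Another bright *Eif4a2* probe set had 217 and 242 in GFP+ and 968 in NT cells and did not pass (log2 difference -2.08, limma, adjusted p = 0.215). *Eif2s3*, a subunit of the factor that carries initiator tRNA, had 333 and 352 in GFP+ and 1330 in NT cells (log2 difference -1.96, limma, adjusted p = 0.0145). *Eif3m* had 378 and 342 in GFP+ and 1223 in NT cells (log2 difference -1.76, limma, adjusted p = 0.0204). Of all 26 translation factors 5 were lower and 5 higher by fold, and of 20 splicing genes 3 and 3. The median over the splicing genes was -0.31. Of 41 ribosomal protein genes 0 were lower and 6 (14.6%) higher by fold, where 11.1% and 13.0% of all genes were. With limma 4 rose and 0 fell. At an unadjusted limma p under 0.05, 15 were higher and 1 lower, where 1129 and 997 of all 8740 probe sets were. The median was 0.65, and 0.39 under quantile normalization.

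Mitochondrial and lipid enzymes were close to NT as lists, with single members lower. Of 55 genes of oxidative phosphorylation 3 (5.45%) were lower and 3 (5.45%) higher by fold, where 11.1% and 13.0% of all genes were. *Uqcrc2* and *Uqcrfs1*, subunits of respiratory complex III, had 868 and 803 against 2501 and 2643 and 2459 against 5430 in NT cells. They fell by 1.58 and 1.09 (limma, adjusted p = 0.0175 and 0.0440), and 2 further probe sets of *Uqcrfs1* had log2 differences of -1.84 and -1.30 (limma, adjusted p = 0.0259 and 0.0204). *Idi1*, an enzyme of isoprenoid and cholesterol synthesis, had 2301 in NT, 505 and 258 in GFP+ and 216 and 200 in GFP+/- cells (log2 difference -2.67, limma, adjusted p = 0.0229). Its dim probe set had 28.4 and 26.9 in GFP+ and 38.2 in NT cells (log2 difference -0.47, limma, adjusted p = 0.845). Of the 22 genes of cholesterol and lipid synthesis 2 (9.09%) were lower and 1 (4.55%) higher by fold. *Acadm*, which oxidizes medium-chain fatty acids, was dim in transfected cells, with 355 in NT, 26.4 and 40.4 in GFP+ and 32.4 and 34.2 in GFP+/- cells (log2 difference -3.44, limma, adjusted p = 0.0216). *Acsl6*, which activates long-chain fatty acids, had 138 in NT, 5.22 and 5.43 in GFP+ and 4.01 and 3.89 in GFP+/- cells (log2 difference -4.70, limma, adjusted p = 0.0149).

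**Figure D3:**
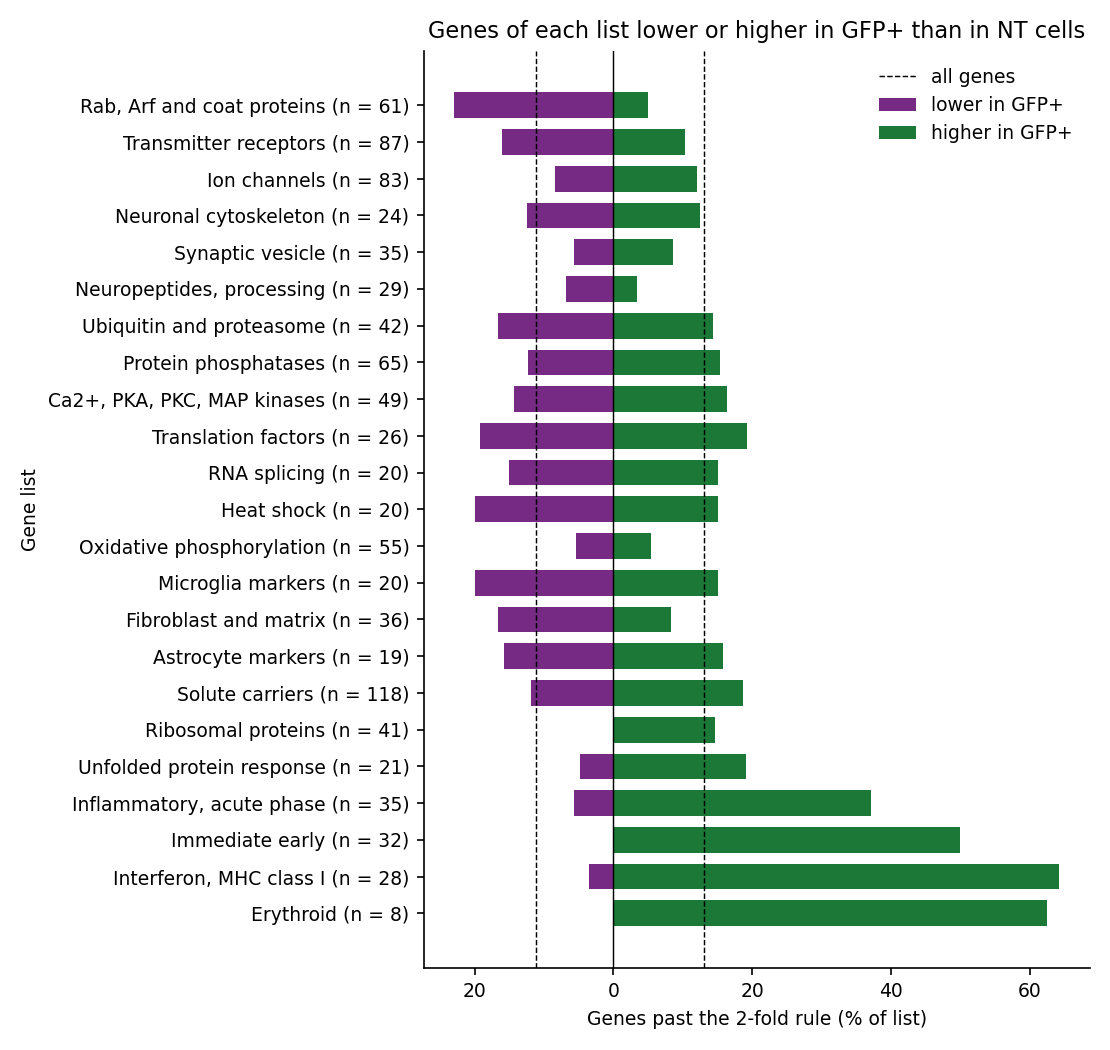
Share of the genes of each list that were lower (purple, to the left) or higher (green, to the right) in GFP+ than in NT cells by the 2-fold rule (x axis, percent of the list), with the number of genes in parentheses. The dashed lines mark the shares over all genes, 11.1% lower and 13.0% higher, and the Rab and Arf list reaches 23.0% lower, while the interferon list reaches 64.3% higher.

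Markers of other cell types that such cultures hold were lower for some and not for others. Between a sorted fraction and a mixed culture, fewer cells of a type and less RNA per cell cannot be told apart. Of 20 microglia and macrophage genes 4 (20%) were lower and 3 (15%) higher by fold, where 11.1% and 13.0% of all genes were. Both GFP+ arrays lay below NT for 6 of the genes and above it for 11. The median was 0.33, and 0.45 over the bright members. *Ctss*, a lysosomal protease of microglia, had 903 in NT, 122 and 159 in GFP+ and 95.2 and 96.8 in GFP+/- cells, and fell by 2.70 (limma, adjusted p = 0.0149). *Spp1*, or osteopontin, had 1089 in NT, 147 and 127 in GFP+ and 258 and 261 in GFP+/- cells, and fell by 3.00 (limma, adjusted p = 0.00808). *C1qb*, of the complement component made by microglia, had 90.9 and 10.2 in GFP+ and 262 in NT cells, with GFP+ arrays too far apart to pass (limma, adjusted p = 0.217). *Csf1r*, the receptor that microglia need to survive, was on the other side, with 59.1 in NT, 219 and 221 in GFP+ and 84.6 and 25.7 in GFP+/- cells (limma, adjusted p = 0.185). The summed signal of the 20 genes was 4150 in NT, 4047 and 2931 in GFP+ and 2823 and 2756 in GFP+/- cells. *Igf1*, a growth factor that microglia and fibroblasts also make, had 1045 in NT, 238 and 90.6 in GFP+ and 56.1 and 40.4 in GFP+/- cells. Its 4 other probe sets were dim, with log2 differences from -2.68 to 0.34.

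Among 36 genes of fibroblasts and their matrix 6 (16.7%) were lower and 3 (8.33%) higher by fold, where 11.1% and 13.0% of all genes were, and 3 fell and 2 rose with limma. The median was -0.054, from -0.32 on GFP+ array 1 and 0.26 on GFP+ array 2, so that the list had no settled direction. *Col3a1*, a fibrillar collagen, had 1318 in NT, 182 and 364 in GFP+ and 987 and 995 in GFP+/- cells. *Dcn*, the matrix proteoglycan decorin, was dim, with 124 in NT, 9.02 and 9.56 in GFP+ and 57.0 and 60.3 in GFP+/- cells. On these probe sets the GFP+ arrays were the lowest of all and the GFP+/- arrays lay between them and NT. On a second, dim *Col3a1* probe set, with 331 in NT, 91.5 and 164 in GFP+ and 78.9 and 140 in GFP+/- cells, the GFP+/- arrays were as low as the GFP+ arrays (log2 difference of GFP+ from NT -1.44, limma, adjusted p = 0.169). The third member that fell, *Col11a1*, another fibrillar collagen, was dim, with 208 in NT, 11.1 and 19.2 in GFP+ and 27.2 and 25.1 in GFP+/- cells (limma, log2 difference -3.84, adjusted p = 0.0236), and a second probe set had 13.3 and 59.7 against 11.4 (limma, adjusted p = 0.587). GFP+ cells fell below NT cells by 2.36 for *Col3a1* and 3.74 for *Dcn* (limma, adjusted p = 0.0301 and 0.0192), whereas GFP+/- cells differed from NT by -0.41 and -1.08 (limma, adjusted p = 0.630 and 0.287). The difference between GFP+ and GFP+/- cells, -1.95 and -2.66, did not pass (limma, adjusted p = 0.145 and 0.144). *Serpinh1*, the collagen chaperone, had 1380 in NT, 282 and 577 in GFP+ and 1253 and 1162 in GFP+/- cells, and *Serpine2*, a secreted protease inhibitor outside the list, 143 in NT, 16.5 and 13.1 in GFP+ and 54.6 and 81.7 in GFP+/- cells. Of the 2, *Serpine2* passed against NT (limma, adjusted p = 0.0271) and *Serpinh1* did not (adjusted p = 0.0626). The other probe sets of *Dcn*, 3 in number, were between 1.35 and 57.3 on the GFP+ arrays and did not pass. *Lamb2*, a laminin of basement membranes, went the other way, with 1310 and 1814 in GFP+ and 426 in NT cells (log2 difference 1.86, limma, adjusted p = 0.0184), while its second bright probe set had 251 and 252 against 238 (limma, adjusted p = 0.896). Summed over the 36 genes, the signal was 30872 in NT, 24118 and 36809 in GFP+ and 64839 and 64956 in GFP+/- cells.

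Of 19 astrocyte markers 3 (15.8%) were lower and 3 (15.8%) higher by fold, where 11.1% and 13.0% of all genes were. The higher ones were *Mt3*, *Slc1a3* and *Slc4a4*, and the lower ones *Aldoc*, *Ndrg2* and *Slc1a2*. Both GFP+ arrays lay below NT for 5 of the markers and above it for 11, and the median was 0.18. *Aldoc*, a glycolytic enzyme typical of astrocytes, had 1656 in NT, 707 and 817 in GFP+ and 1123 and 1031 in GFP+/- cells, and *Ndrg2* had 3173 in NT, 1514 and 1583 in GFP+ and 1899 and 2326 in GFP+/- cells. Both fell, by 1.12 and 1.04 (limma, adjusted p = 0.0341 and 0.0451). *Mt3*, a metallothionein of the brain, rose, with 2271 and 2701 in GFP+ and 1029 in NT cells (limma, adjusted p = 0.0252). The plot of trafficking and marker genes sets the 3 populations side by side.

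**Figure D4:**
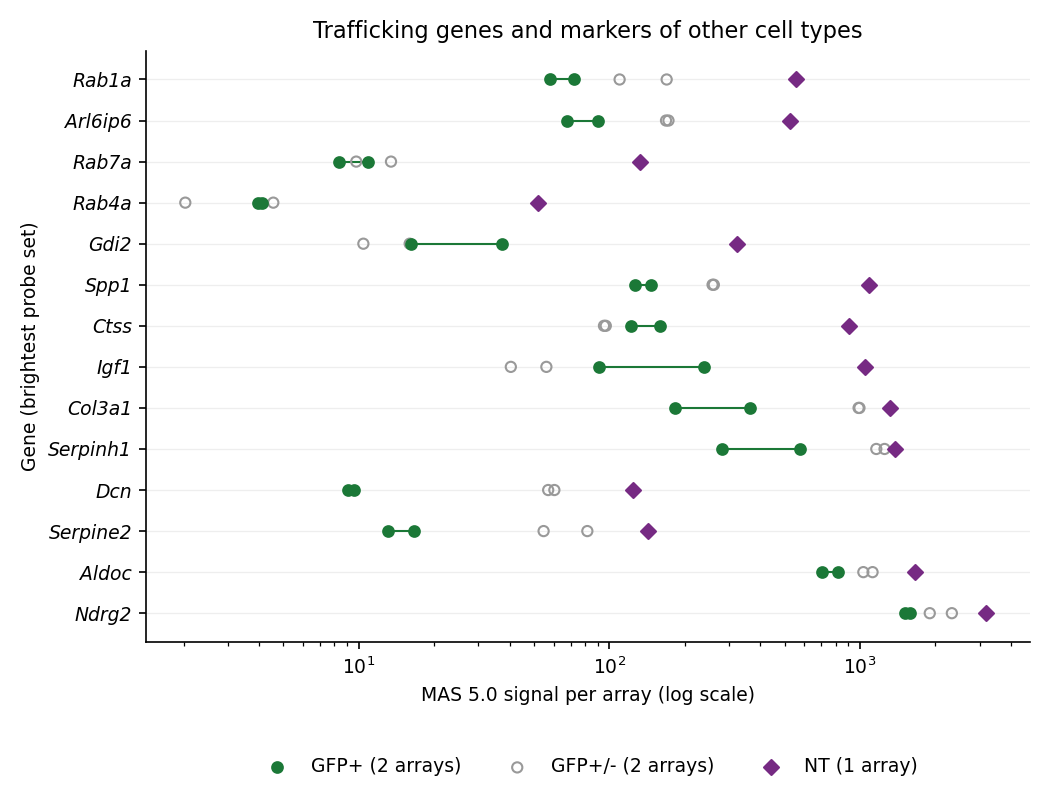
MAS 5.0 signals (x axis, log scale) of 5 trafficking genes and 9 genes of microglia, matrix and astrocytes, 1 row per gene and 1 point per array. GFP+/- arrays lie at or near the GFP+ arrays for *Rab7a*, *Rab4a* and *Ctss*, and nearer to NT for *Col3a1* and *Serpinh1*.

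Of 28 interferon and MHC class I genes 18 (64.3%) were higher and 1 lower by fold, where 13.0% and 11.1% of all genes were. With limma 9 rose and 0 fell, and the median was 1.10. At an unadjusted limma p under 0.05, 21 were higher and 0 lower, where 1129 and 997 of all 8740 probe sets were. *Rsad2*, the antiviral protein viperin, had 58.3 in NT, 3931 and 1483 in GFP+ and 619 and 1098 in GFP+/- cells, and rose by 5.37 (SE 0.62, limma, adjusted p = 0.0145). A second *Rsad2* probe set had 368 and 235 in GFP+ and 167 in NT cells and did not pass (limma, adjusted p = 0.397). *Gbp2*, a GTPase that attacks the membranes of pathogens, had 4.48 in NT, 612 and 161 in GFP+ and 129 and 124 in GFP+/- cells (log2 difference 6.13, SE 0.79, limma, adjusted p = 0.0158). *Irf7*, the transcription factor that amplifies the interferon response, had 28.2 in NT, 506 and 228 in GFP+ and 217 and 175 in GFP+/- cells (log2 difference 3.59, limma, adjusted p = 0.0204), and 80.6 and 34.8 against 35.8 on a dim probe set. For these 3 genes GFP+ array 1 was the brighter one, by more than the distance between the GFP+/- arrays. *RT1-S3*, a class I molecule, had 18.8 in NT, 793 and 629 in GFP+ and 892 and 1428 in GFP+/- cells, and its 2 other probe sets also rose (limma, adjusted p = 0.0168 and 0.00808). Class I genes are close copies of each other, so that this signal cannot be given to 1 of them.

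Promoters of the interferon list were read from RefSeq for 26 of its 28 genes, from 250 bases before to 50 after the start of the transcript. The core of the interferon-stimulated response element, GAAANNGAAA on either strand, was present in 14 of the 26 (53.8%), in 3.38% of the promoters of all measured genes and in 4.12% of the whole table. The list was made of interferon and class I genes, so that its share describes the list and not the difference between the populations. Among bright genes lower by fold it was present in 2.45%, and among those higher by fold in 8.07%. The latter set includes members of the interferon list, so that its share is not separate from that of the list. Among the 17 list genes higher by fold with a promoter, 10 (58.8%) held the core, a share near that of the whole list. The element binds interferon regulatory factors and STAT complexes. A match is a description of these letters and not of binding. The windows of the 3 genes above are shown 5' to 3' along the gene, with the core in capitals, which all 3 hold on the other strand. The window of *Scg2* is shown beside them for a gene that fell, with the palindrome TGACGTCA of the cyclic AMP response element in capitals, which was present in 2.45% of the bright genes lower by fold and in 2.50% of all measured genes.
*Rsad2*, GRCr8 chr6:48788233-48788292, strand -: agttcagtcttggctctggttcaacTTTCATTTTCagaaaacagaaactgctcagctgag
*Gbp2*, GRCr8 chr2:234005671-234005726, strand +: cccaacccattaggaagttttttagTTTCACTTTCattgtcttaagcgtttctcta
*Irf7*, GRCr8 chr1:205800058-205800117, strand -: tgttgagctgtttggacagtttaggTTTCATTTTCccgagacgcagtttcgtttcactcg
*Scg2*, GRCr8 chr9:88256957-88257014, strand -: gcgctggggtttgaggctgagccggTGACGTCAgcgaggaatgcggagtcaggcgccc

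Of 35 inflammatory and acute phase genes 13 (37.1%) were higher and 2 (5.71%) lower by fold, where 13.0% and 11.1% of all genes were. With limma 10 rose and 0 fell, where 4.31% and 4.10% of all genes did. *Lcn2*, a siderophore-binding protein of the acute phase, had the largest difference of any bright gene, with 14.0 in NT, 3507 and 3557 in GFP+ and 3746 and 3703 in GFP+/- cells. It rose by 7.98 (SE 0.19, limma, adjusted p = 0.000197) and was the one probe set past the threshold whichever array was left out. *C1s*, a complement protease outside the list, had 74.3 in NT, 1109 and 955 in GFP+ and 872 and 867 in GFP+/- cells. *Ccl2*, a chemokine that attracts monocytes, had 133 in NT, 1752 and 1327 in GFP+ and 4256 and 2185 in GFP+/- cells. *Cp*, the copper protein ceruloplasmin, had 592 and 568 in GFP+ and 71.1 in NT cells. These 3 rose by 3.79, 3.52 and 3.03 (limma, adjusted p = 0.00808, 0.0149 and 0.00808), and none passed the test between GFP+ and GFP+/- cells. A dim *Cp* probe set had 80.1 and 42.6 in GFP+ and 63.9 in NT cells (log2 difference -0.13, limma, adjusted p = 0.928). Another dim *Cp* probe set had a log2 difference of 2.73 and did not pass either (limma, adjusted p = 0.125).

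Of 32 immediate early genes 16 (50.0%) were higher and 0 lower by fold, where 13.0% and 11.1% of all genes were. With limma 11 rose and 0 fell, where 4.31% and 4.10% of all genes did, and the median was 1.07. *Fos* had 287 in NT, 2687 and 2227 in GFP+ and 1093 and 944 in GFP+/- cells, and its 2 other probe sets rose as well (log2 differences 3.09, 4.20 and 3.51, limma, adjusted p = 0.00808, 0.00808 and 0.0297). Its product is a component of the AP-1 transcription factor. *Atf3*, a stress-induced repressor, had 162 in NT, 1172 and 673 in GFP+ and 242 and 277 in GFP+/- cells (limma, adjusted p = 0.0218). *Klf4* had 154 in NT, 749 and 581 in GFP+ and 176 and 115 in GFP+/- cells (limma, adjusted p = 0.0275). On the brightest probe sets of *Atf3* and *Klf4* the GFP+/- arrays were near NT, as they were for *Nefh*, for *Mdm2*, the ubiquitin ligase that restrains p53, and for *Txnip*, an inhibitor of thioredoxin. *Mdm2* had 153 in NT, 1180 and 1519 in GFP+ and 157 and 156 in GFP+/- cells, and *Txnip* had 179 in NT, 1287 and 1219 in GFP+ and 218 and 159 in GFP+/- cells. The other probe sets of these genes did not pass. A bright one of *Klf4* had 194 in NT, 603 and 423 in GFP+ and 171 and 114 in GFP+/- cells (limma, adjusted p = 0.0861). A dim one of *Txnip* had a log2 difference of 0.84 (limma, adjusted p = 0.369), and the 3 of *Mdm2* had 0.25, 0.43 and 0.78 (limma, adjusted p = 0.801, 0.780 and 0.224). On the last of these the GFP+/- arrays, at 203 and 157, were beside the GFP+ arrays, at 174 and 175, with NT at 102. On the brightest probe sets, against GFP+/- cells these 5 had log2 differences from 1.78 to 4.0, none of which passed the test (limma, adjusted p from 0.0829 to 0.145).

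Of 8 erythroid genes 5 (62.5%) were higher and 0 lower by fold, where 13.0% and 11.1% of all genes were. With limma 3 rose and 0 fell. *Hbb*, an adult beta globin, had 254 in NT, 3072 and 3385 in GFP+ and 8361 and 5760 in GFP+/- cells. *Hbb-b1*, another beta globin, had 208 in NT, 3127 and 3126 in GFP+ and 6265 and 4217 in GFP+/- cells. Both rose (log2 differences 3.67 and 3.91, limma, adjusted p = 0.00808), and both probe sets share sequence with the globin family. *Alas2*, the erythroid enzyme of heme synthesis, had 430 and 325 in GFP+ and 127 in NT cells (limma, adjusted p = 0.0448). The globin signal was thus higher in the transfected populations than in NT cells.

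**Figure D5:**
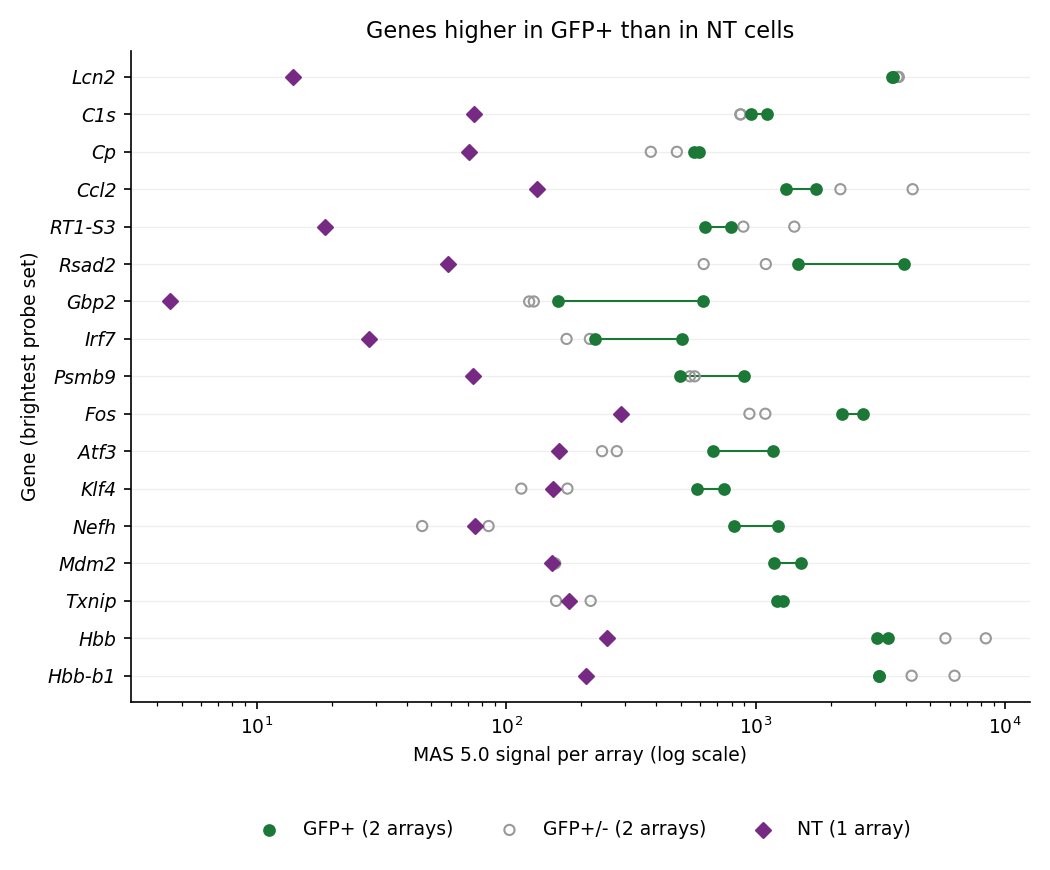
MAS 5.0 signals (x axis, log scale) of 17 genes that were higher in GFP+ than in NT cells, 1 row per gene and 1 point per array. GFP+/- arrays lie beside the GFP+ arrays for *Lcn2* and *C1s* and beside NT for *Nefh*, *Mdm2* and *Txnip*.

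Other probe sets of the same gene, which had no part in choosing it, are set beside it. They were read on the same arrays and RNA pools, so that any difference between the arrays is shared. Their agreement is therefore a description of the probe sets and not a test of the populations. Of 244 bright genes lower by fold (10.5% of 2334) 38 had another bright probe set, 45 in all. Of all probe sets, bright or dim, 35.9% had both GFP+ arrays below NT and 41.5% above. Of the 45, 35 had both below and 5 above, and 26 were lower and 3 higher by fold. Their log2 differences had a median of -1.10 and ran from -3.34 to 2.16. Of 277 bright genes higher by fold (11.9%) 79 had another bright probe set, 91 in all, of which 70 had both GFP+ arrays above NT and 10 below, and 32 were higher and 2 lower by fold, with a median of 0.59. Of the 76 named genes past limma 33 had another probe set, bright or dim, 43 in all. Of these 16 passed limma in the same direction and 0 in the opposite one, 20 had the same sign and 7 the opposite sign without passing. Where probe sets of a gene differ, the size of its change depends on the one that is read.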

How the data were processed

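RNA of GFP+ (2 arrays), GFP+/- (2 arrays) and NT cells (1 array) had been hybridized to Affymetrix rat arrays. The authors summarised each probe set with MAS 5.0 as a linear signal intensity and scaled each array. The deposited means of 501 differ from the scaling target that the methods give. Detection calls were not used here. Every column was mapped to a population.

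Of 8799 probe sets 59 controls were left out. By GEO's platform annotation 7006 probe sets matched 1 gene, 308 more than one and 1426 no gene. Symbols of 6985 were found among RefSeq names (GRCr8). Each gene was represented by the brightest of its probe sets, by mean over the 5 arrays. Before log2 transformation, 1 was the lowest signal kept.

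A gene or probe set was called by fold when its averaged signals were 2-fold apart, with both GFP+ arrays on one side of NT. Log2 signals of the 5 arrays were fitted together, with a mean for each population, by limma 3.58.1 (R 4.3.3), whose prior variance followed signal intensity, with Benjamini-Hochberg adjustment across the 8740 probe sets and 0.05 as the threshold. No spread can be had from NT, and that of the GFP+ and GFP+/- arrays was used for it. Gene lists were described by counts and medians. RefSeq promoters (GRCr8) were matched by symbol and searched for 2 motifs on both strands. The steps were tested on simulated data. Tables and plots were made in Python with pandas and matplotlib.

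The members and lists were chosen with earlier results of these data known. The named genes are up to 20 lower and 12 higher bright genes with a gap to NT wider than that between the GFP+ arrays, up to 20 in each direction past limma's threshold, up to 4 in each direction of each list, markers, and genes the paper names. *Neurod1*, *Pou3f3*, *Myt1l* and *Nalcn* were added after their values were seen. The alternatives were quantile normalization, equal medians, 16 added to each signal, the brightest 41%, the mean of log2 signals, 2-fold on each array, no trend, GFP+ and NT arrays alone, a replicate block, each array left out, and averaging the probe sets of each gene.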

Additional observations from a re-analysis of the deposited data

Results flagged for a closer look

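Some control probe sets that no comparison used gave higher signals on the GFP+ arrays than on the NT array. The probe set for rat 5S ribosomal RNA had 215 in NT, 769 and 858 in GFP+ and 376 and 392 in GFP+/- cells, a ratio of 3.78 for the mean of the GFP+ arrays over NT. The B1 repeat, a short interspersed element, had 221 in NT, 867 and 809 in GFP+ and 402 and 487 in GFP+/- cells, a ratio of 3.80. The B2 repeat had 70.0 in NT, 152 and 175 in GFP+ and 103 and 122 in GFP+/- cells, a ratio of 2.34. The probe set for the antisense strand of *Gapdh* had 93.7 in NT, 341 and 248 in GFP+ and 167 and 151 in GFP+/- cells, a ratio of 3.14. On these 4 probe sets the GFP+/- arrays lay between NT and GFP+. The 3' probe sets of the spike-in controls BioB, BioC, BioDn and CreX were also higher than on NT. Their ratios over NT ran from 1.65 to 2.02 for the mean of the GFP+ arrays. For the mean of the GFP+/- arrays they ran from 2.19 to 2.57, so that here GFP+/- lay above GFP+. With 1 NT array none of these differences was tested.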

How the results depend on the processing

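Under quantile normalization, equal medians, 16 added to each signal, the mean of log2 signals and 2-fold on each array, the counts by fold and by limma stayed within 1.5 times those reported. Among the brightest 41% the 2-fold rule gave 412 lower and 471 higher probe sets, by construction from fewer probe sets, and limma 535 and 598. Limma without an intensity trend called 1 lower and 1 higher probe set and with the GFP+ and NT arrays alone 0 and 1, and in both 1 of the 83 genes named in the text passed, against 76. With one array left out the 2-fold rule gave 1143 to 1443 lower and 1172 to 1338 higher probe sets, and limma 0 to 0 lower and 1 to 1 higher, with 1 to 1 of the named genes. The fits with fewer arrays have fewer residual degrees of freedom, the one without a trend has the same number, and the cause of the loss was not tested. The replicate numbers of GFP+ and GFP+/- cells gave 2 pairs, with a correlation of deviations of 0.0632 over all probe sets and 0.197 over the brightest 41%. A replicate block gave 426 lower and 478 higher probe sets and 79 named genes. Lists with more members lower than higher by fold were 10 of 39, and 10 to 14 under the alternatives. Among the 83 named genes, each read from its brightest probe set, *Mapt* alone changed sign, to -0.036 under quantile normalization. Averaging the probe sets of each gene was applied to the lists and not to single genes. The sign of *Trh* depended on the probe set, as its second one had a log2 difference of -1.02, opposite to the brightest one. Of the 39 list medians 20 changed sign under at least one alternative, most of them close to 0. Of those at least 0.25 from 0, that of the p53 targets went from 0.55 over 8 genes to -0.10 over the 5 bright ones, and that of the neurotrophins from -0.27 to 0.069 without GFP+ array 1. Dim signals limit the sizes for *Rab7a*, *Rab4a*, *Acsl6* and *Gabrb1*.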

Other observations

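For the families below the shares over all genes were 11.1% lower and 13.0% higher by fold. Of 32 nuclear receptor genes 3 (9.38%) were lower and 8 (25%) higher by fold, 1 fell and 4 rose with limma, and the median was 0.37. Of 21 genes of the unfolded protein response 4 were higher and 1 lower by fold, and all 5 passed limma in those directions. Of 118 solute carriers 14 (11.9%) were lower and 22 (18.6%) higher by fold, with 6 falling and 6 rising by limma. Of 20 heat shock genes 4 were lower and 3 higher by fold. Of 83 ion channel genes 7 were lower and 10 higher by fold, with 1 falling and 2 rising by limma. Over all 39 lists, 10 had more members lower than higher by fold, 21 more members higher and 8 as many of each.

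Dim genes held the largest decreases past limma's threshold. *Ccdc141*, a coiled-coil protein, had 71.7 in NT, 2.56 and 2.04 in GFP+ and 12.5 and 18.4 in GFP+/- cells, a log2 difference of -4.97 (limma, adjusted p = 0.0151). A smaller decrease was that of *Gucy2e*, a membrane guanylate cyclase. It had 209 in NT, 26.1 and 29.2 in GFP+ and 146 and 98.4 in GFP+/- cells (limma, log2 difference -2.92, adjusted p = 0.0235). The GFP+ signals of both genes were under the 25th percentiles of the GFP+ arrays, 28.1 and 29.7. The median signal was 114 and 116 in GFP+ and 112 in NT cells.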
